A study of Homo sapiens with 8 samples.

Results

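Regions of open chromatin on chromosome 8 below 120 Mb and on chromosome 13 from 75 Mb onwards were described in 2 B cell precursor acute lymphoblastic leukaemia lines, KOPN-8 and 697. ATAC-seq peak lists of 8 libraries were merged wherever peaks shared at least 1 bp, which gave 133028 regions in hg19. Of these, 9524 started in the 2 stretches, 7358 on chromosome 8 and 2166 on chromosome 13. The stretches were chosen from the calls of the KOPN-8 libraries, because fewer peaks had been called there in the edited clone. All differences between the KOPN-8 clone and its control within the stretches are therefore a description without a test. The KOPN-8 clone BA and the 697 clone BM_B had been edited with a guide against SETD2 and are labelled heterozygous knockouts. Their controls were KOPN-8 and 697 cells with an empty guide vector, labelled wild type for SETD2. Each of the 4 groups had 2 libraries. Both libraries of a clone group came from the same clone, so what sets 1 clone apart from a bulk population and what the edit does cannot be told apart. The labels call the duplicates biological without stating whether they were grown apart, so p-values measure only the spread between these libraries, which may be technical. Lists of the KOPN-8 clone held 67301 and 64667 peaks and those of its control 70430 and 63585. Lists of the 697 clone held 63012 and 76495 peaks and those of its control 57154 and 70099. Read depth is unknown. The labelled cell type was not checked against marker genes, because no gene annotation in hg19 was used.

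In ATAC-seq the Tn5 transposase cuts accessible DNA and attaches sequencing adapters, so that active promoters, enhancers and insulators give piles of fragments. A peak caller reports a site where the pile exceeds a background taken from the whole library or from the neighbourhood of the site, whichever is higher. Broad, strong peaks lie far above this limit and narrow, weak peaks lie close to it. SETD2 is the histone methyltransferase that trimethylates lysine 36 of histone H3 along transcribed genes. The peak lists hold no read counts, so fewer copies of a stretch of DNA and less open chromatin along it cannot be told apart in them.

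The KOPN-8 clone held fewer called sites along both stretches. On chromosome 8 below 120 Mb its lists held 2576 and 2555 peaks, against 3603 and 3231 in the control. On chromosome 13 from 75 Mb its lists held 807 and 772 peaks, against 1226 and 1057 in the control. As a percentage of each list, both stretches together took 5.03% and 5.14% of peaks in the clone, against 6.86% and 6.74% in the control. The groups did not overlap, and the duplicates of a group lay close together. The mean was 5.09 ± 0.0835% in the clone and 6.80 ± 0.0797% in the control (SD, n = 2 each), a ratio of 0.748 that ranged from 0.733 to 0.763 over the 4 clone-control pairs. The widest 95% Wilson interval of these 4 shares ran from 6.55% to 6.94%. Such intervals cover counting error only. The chromosome 13 stretch had the lower ratio, at 0.703 (0.686 to 0.721 over pairs), and the chromosome 8 stretch had 0.763 (0.748 to 0.778). For whole chromosomes, the ratio was 0.789 on chromosome 8 and 0.819 on chromosome 13, while the 22 other chromosomes lay between 0.974 on X and 1.11 on 22. Sites with the highest deposited value showed a smaller difference. This value was read as a fold over background. Under that reading, as given below, the background used in the stretches differed between clone and control, so their ranks may not be alike. Among the 10000 peaks with the highest value in each list, 488 and 504 lay in the stretches in the clone, against 583 and 566 in the control, a ratio of 0.863.

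**Figure D1:**
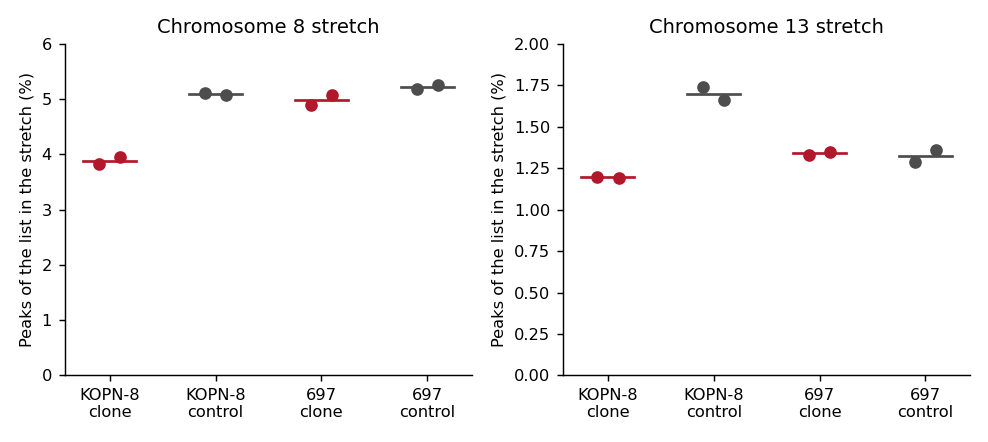
Percentage of each list's peaks that lie in the chromosome 8 stretch (left) and the chromosome 13 stretch (right), by group; points are the 2 libraries of a group and the bar is their mean. On chromosome 8 the KOPN-8 clone libraries sit at 3.83% and 3.95%, against 5.12% and 5.08% in the KOPN-8 control, and on chromosome 13 at 1.20% and 1.19%, against 1.74% and 1.66%.

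By share of full lists, the 697 clone showed no loss of this size in the same stretches. They took 6.22% and 6.43% of peaks in the 697 clone, against 6.47% and 6.62% in the 697 control. The clone lay slightly lower in both libraries, with a ratio of 0.966 (0.940 to 0.993 over pairs), and the exact two-sided permutation test gave p = 0.333 (n = 2 each), the smallest that 2 against 2 libraries allow. On chromosome 8 the 697 clone had 4.89% and 5.08%, against 5.18% and 5.26% in the control (exact permutation, two-sided p = 0.333), without overlap. On chromosome 13 it had 1.33% and 1.35%, against 1.29% and 1.36% in the control (exact permutation, two-sided p = 1), and the groups overlapped. Among the 10000 peaks with the highest value, the ratio over both stretches was 0.95, and 0.974 on chromosome 8. On chromosome 13 the 697 clone held 105 and 99 of these peaks, against 119 and 120 in the control, without overlap. That ratio was 0.854 (exact permutation, two-sided p = 0.333), against 0.812 in KOPN-8. The 697 groups were not used to choose the stretches. Whether the 2 lines differ was not tested.

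The KOPN-8 clone kept regions that both controls called more often than regions that 1 control called. Of the 3353 regions in the stretches that both KOPN-8 controls called, the clone called 2422 (72.2%) in both libraries, 421 (12.6%) in 1 library and 510 (15.2%) in neither. A region of this last kind is counted as lost. Over the whole genome 6.54% of regions called in both controls were lost, and on the chromosomes other than 8 and 13 it was 2809 of 47901 (5.86%). The stretch on chromosome 13 lost 147 of 810 regions (18.1%) and that on chromosome 8 lost 363 of 2543 (14.3%). Among the 22 other chromosomes the highest percentage lost was 7.84%, on X. Without control 1 the percentage lost in the stretches was 28.0% and without control 2 it was 33.8%, since a single control call then counts. No value of the other chromosomes under this looser rule is given here, so these 2 percentages cannot be set against the 5.86%. In the stretches 2154 regions had a single control call, and 419 of these (19.5%) had a call in at least 1 clone library, against 46.8% on the other chromosomes. Regions without any control call and with both clone calls, counted as gained, were rare. There were 64 in the stretches, which is 2.45% of the 2616 regions that both clone libraries called there, against 6.15% over the whole genome.

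Along the stretches, control regions were found in a clone library less often than in the other control. The stretches were chosen for fewer clone calls, which favours this, so it is a description only. A region of the stretches called in 1 KOPN-8 control was called in a given clone library in 62.7% of cases (59.5% to 65.9% over 4 pairs) and in the other control in 76.0% (71.4% and 80.6%). On the other chromosomes these values were 80.6% (77.7% to 83.4%) and 82.9% (78.4% and 87.4%). The ranges overlapped there and did not overlap in the stretches. On the rest of chromosome 8 they did not overlap either, at 75.8% (73.6% to 78.2%) and 83.8% (80.1% and 87.6%). On the rest of chromosome 13 they overlapped. Read the other way, a region of the stretches called in 1 clone library was called in a given control in 85.9% of cases (83.7% to 88.3%) and in the other clone library in 81.2% (80.5% and 81.9%). Sites of the clone were thus found in a control list more often than in its own duplicate. The controls called 4699 and 4161 regions of the stretches, against 3251 and 3195 in the clone, which the choice of the stretches favoured. A longer list holds more of another's sites, so this and the next share are no separate result. On the rest of chromosome 8 it was also 86.4% in a control and 85.2% in the other clone library. Nearly all the sites that the clone still had were sites that the control had too, since 2422 of the 2616 regions called in both clone libraries (92.6%) were called in both controls, against 84.0% on the other chromosomes.

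Loss was concentrated in narrow peaks, and broad peaks were nearly all kept. The width of a region was taken as the smaller of its widest peaks in the 2 controls. Under 300 bp, 414 of 1488 regions in the stretches (27.8%) were lost, against 12.2% on the other chromosomes. From 300 to under 600 bp, 94 of 1292 (7.28%) were lost, against 1.93%. At 600 bp or more, 2 of 573 (0.349%) were lost, against 0.145%. The percentage lost was thus 2.27 times that of the other chromosomes in the narrow class and 3.77 times in the middle class, while 2 lost regions are too few to compare in the broad class. The steps in width were alike in the 2 stretches. On chromosome 13, 33.5% of regions under 300 bp, 12.9% from 300 to under 400 bp and 5.52% from 400 to under 600 bp were lost, and on chromosome 8, 26.1%, 9.19% and 3.29%. None of the 130 regions of 600 bp or more was lost on chromosome 13, which allows a share of up to 2.31%. This limit and the later ones of its kind treat regions as lost independently of each other. Regions beside a lost neighbour were lost more often, so the limits are too tight if that holds in these classes. Both lost regions of that width lay on chromosome 8, one from 4940562 to 4941278, with peaks of 637 and 706 bp in the controls and no call in 697, and the other from 94139419 to 94140234, with peaks of 795 and 701 bp and calls in all 4 libraries of 697. With the other chromosomes weighted to the width classes of the stretches, 6.22% of regions would have been lost, against the 15.2% seen. The narrow minus broad difference of 27.5 percentage points was 46.9 points without control 1 and 55.4 points without control 2.

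**Figure D2:**
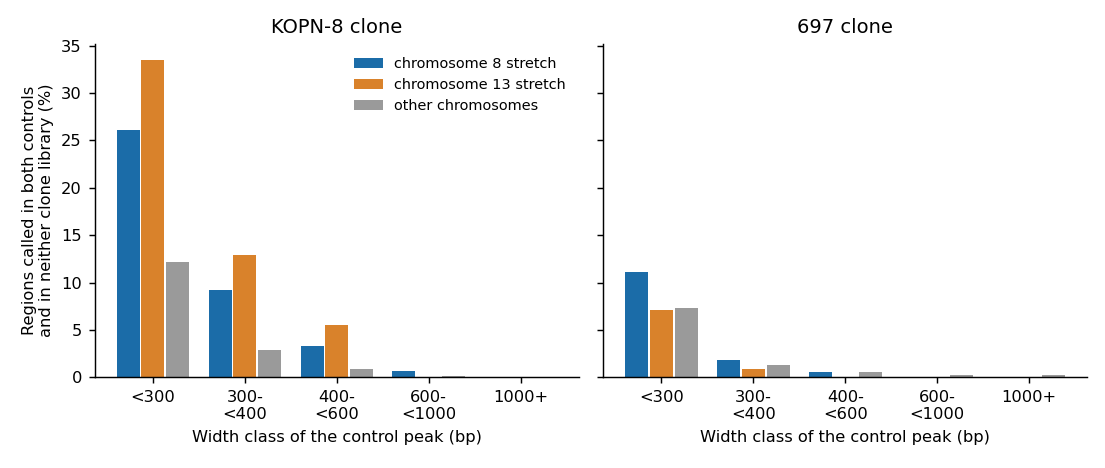
Percentage of regions called in both controls and in neither clone library, by width class of the control peak in bp, for the chromosome 8 stretch, the chromosome 13 stretch and all chromosomes other than 8 and 13, in KOPN-8 (left) and 697 (right). In KOPN-8 the bars of both stretches stand above those of the other chromosomes in every class below 600 bp (33.5% and 26.1% against 12.2% under 300 bp), while in 697 the bars stand much closer together. In 697 the other chromosomes include Y; without it 0.0512% were lost at 600 bp or more.

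The rank of a peak's value within its control list divided the regions in a like manner. The deposited value was read as the fold of a peak over its background, it is the authors' own, and it was used only to rank peaks within a list. Of regions whose lower control percentile was at most 25, 354 of 917 (38.6%) were lost in the stretches, against 18.7% on the other chromosomes. Between 25 and 50 it was 15.7% of 795, against 7.33%, and between 50 and 75 it was 30 of 800 (3.75%), against 1.12%. Above 75, only 1 of 841 regions (0.119%) was lost, against 0.0845%. That region lay on chromosome 13, and 0 of 641 regions of this rank were lost on chromosome 8, which allows up to 0.468%.

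Regions that kept all 4 calls were narrower in the clone as well. Over the 2422 such regions in the stretches, the median of the widest peak was 374 and 370 bp in the clone, against 428 and 410 bp in the control. Over the 41112 such regions on the other chromosomes it was 428 and 413 bp in the clone, against 421 and 396 bp in the control. Both clone libraries thus lay below both controls in the stretches, and the groups overlapped elsewhere. The clone covered more bases than the control in 774 of the 2422 regions (32.0%), against 55.4% of regions on the other chromosomes. This held on chromosome 13 (26.6%) and on chromosome 8 (33.6%). In 697, where the stretches were not chosen on calls, the median over 2563 regions with all 4 calls was 385 and 451 bp in the clone, against 358 and 411 bp in the control (exact permutation, two-sided p = 0.667, n = 2 each). The 697 clone covered more bases in 63.1% of regions in the stretches and in 65.5% of those elsewhere.

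The values of the peaks also differed in kind between the clone and the control along the stretches. In each list a part of the values fell on an even grid, with a step between 0.223 and 0.285 over the 8 lists. Under the usual formula of the caller such values arise where the background of the whole library was used, and values off the grid where the background near the peak was higher. A value was counted as on the grid within 0.01 of a step, which by itself would place 2% of values there. In the KOPN-8 clone 18.4% and 14.6% of peaks in the stretches were on the grid, against 5.28% and 4.01% in the KOPN-8 control. On the other chromosomes it was 22.2% and 20.4% in the clone, against 22% and 18.6% in the control. The low share in the control was not particular to the stretches. On the rest of chromosome 8 it was 11.3% and 10.0% in the clone, against 7.59% and 5.46% in the control, while on the rest of chromosome 13 it was 28.3% and 25.2% in the clone, against 24.9% and 20.5% in the control. Within the stretches the clone lay above the control on chromosome 13, with 11.0% and 8.55% in the clone against 2.94% and 2.37% in the control, and on chromosome 8, with 20.7% and 16.4% against 6.08% and 4.55%. In steps of 10 Mb, cut at the limit on chromosome 13, both clone libraries lay above both controls in all 17 steps of the stretches, against 31.4% of the 287 steps of the genome with at least 60 peaks in each list. Averaged over duplicates, the clone exceeded the control by 3.63 to 25.6 percentage points in these steps (median 11.2), and by -12.7 to 11.7 points (median 0.525) in the 262 steps on other chromosomes. Among the strongest 50% of each list, the clone exceeded the control by 6.48 points over both stretches, against 11.9 points in full lists. The size of this difference was set beside the loss in a few places only, and a relation over all steps was not tested. Chromosome 13 lost the larger part of its regions and had the smaller difference in percentage points. As a ratio of clone to control its difference was not the smaller, since its control share was lower. The steps named next are examples and do not show whether the 2 are related. On chromosome 8 between 50 and 60 Mb, 33.8% and 30.8% of peaks were on the grid in the clone, against 10.1% and 3.26% in the control, with 14.5% of regions lost. On chromosome 13 between 100 and 110 Mb it was 5.91% and 3.65% in the clone, against 0.912% and 1.40% in the control, with 16.4% of regions lost. Between 80 and 90 Mb on chromosome 13, where 30.2% of regions were lost, it was 16.3% and 14.6% in the clone, against 2.04% and 2.63% in the control. The part of the background near the peaks in the loss of calls was not tested.

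**Figure D3:**
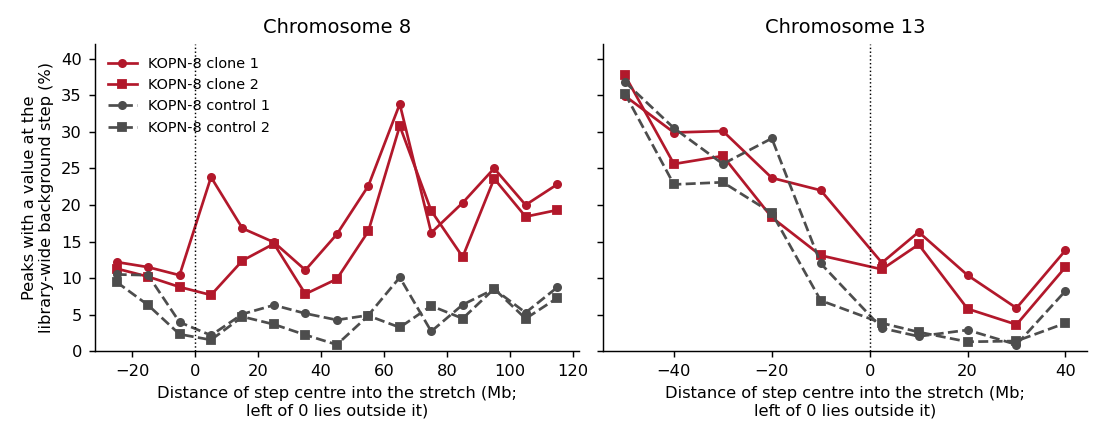
Percentage of peaks whose value lies on the grid of the library-wide background, in steps of 10 Mb, for each KOPN-8 library, by the distance of the step's centre into the stretch in Mb; positions left of 0 lie outside the stretch, and steps with fewer than 60 peaks in any list are left out. Inside both stretches the control libraries lie between 0.905% and 10.1% and below both clone libraries of the same step. Outside the chromosome 8 stretch both clone libraries also lie above both controls at 5 Mb (10.4% and 8.79% against 3.98% and 2.33%) and at 25 Mb. At 15 Mb outside it they overlap. Outside the chromosome 13 stretch the clone and control libraries overlap at 20, 40 and 50 Mb. At 10 and 30 Mb outside it both clone libraries lie above both controls (30.1% and 26.7% against 25.6% and 23.1% at 30 Mb).

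Peaks of the stretches were also low-ranking within the KOPN-8 control lists. Of the clone's peaks in the stretches 28.0% and 27.2% had a value in the lowest 25% of the list, against 38.3% and 37.6% of the control's. On the other chromosomes the 4 libraries had between 23.9% and 24.8%. On chromosome 13 it was 30.9% and 30.2% in the clone, against 44.5% and 42.2% in the control. The control thus carried an excess of low-value peaks in the stretches, most of all on chromosome 13. In 697 the chromosome 8 stretch was also rich in low-value peaks, at 34.3% and 39.8% in the clone, against 36.8% and 38.1% in the control, and the groups overlapped.

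Loss ran along the whole length of both stretches and was uneven from window to window. In steps of 10 Mb on chromosome 8, between 10.7% (60 to 70 Mb) and 20.3% (110 to 120 Mb) of regions called in both controls were lost. On chromosome 13, loss was highest between 80 and 90 Mb, where 48 of 159 regions (30.2%) were lost and the lists held peaks in 138 and 139 regions in the clone, against 287 and 221 in the control. It was lowest between 110 and 120 Mb, at 15 of 133 (11.3%). Of the 71 windows of 2 Mb in the stretches with at least 20 such regions, 68 lost more than the median window of the other chromosomes (4.76%), and 30 lost more than 95% of those windows did (16.1%). The median window of the stretches lost 14.1%. The limits of the stretches were not sharp edges of the loss. Over 5 Mb on either side of the limit on chromosome 8, 11 of 74 regions (14.9%) were lost inside and 16 of 142 (11.3%) outside. On chromosome 13 it was 16 of 114 (14.0%) inside and 21 of 71 (29.6%) outside. In steps outside the limit on chromosome 8, 12.5% were lost from 120 to 130 Mb, 6.28% from 130 to 140 Mb and 3.78% from 140 Mb. On chromosome 13, 14.0% were lost from 60 to 70 Mb and 11.9% from 50 to 60 Mb. Further out, between 4.60% and 5.58% were lost in the steps from 20 to 50 Mb on chromosome 13.

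**Figure D4:**
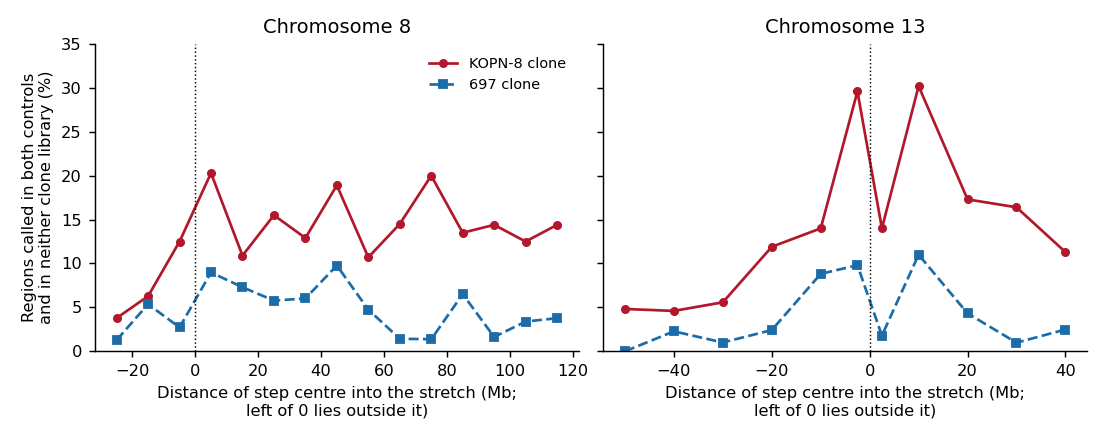
Percentage of regions called in both controls and in neither clone library, in steps of 10 Mb (cut at the limit on chromosome 13), for the KOPN-8 and the 697 clone, by the distance of the step's centre into the stretch in Mb; positions left of 0 lie outside it. The KOPN-8 line stays between 10.7% and 30.2% inside both stretches, and the 697 line between 0.980% and 11.0%.

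The windows at the ends of this order were named by a fixed rule. On chromosome 8 the highest loss was between 4 and 6 Mb, where 15 of 36 regions (41.7%) were lost and the clone lists called 23 and 21 regions, against 48 and 46 in the control. The windows from 50 to 52 Mb and from 76 to 78 Mb followed, each with 8 of 24 regions lost (33.3%). In 697 the window from 4 to 6 Mb lost 0 of 30 such regions, whereas that from 76 to 78 Mb lost 7 of 33 (21.2%). The lowest loss on chromosome 8 was between 52 and 54 Mb, where 0 of 38 regions were lost, although 7 of them kept a single clone call. No upper limit is given for this window, because it was picked as the lowest. The next windows were 62 to 64 Mb, with 1 of 30 (3.33%), and the end of the short arm from 0 to 2 Mb, with 2 of 42 (4.76%) and 7 gained regions. On chromosome 13 the highest losses were between 86 and 88 Mb, at 11 of 28 (39.3%), between 88 and 90 Mb, at 13 of 36 (36.1%), and between 104 and 106 Mb, at 8 of 27 (29.6%). The window from 86 to 88 Mb was also high in 697, at 5 of 15 (33.3%), over few regions. The lowest losses were between 76 and 78 Mb, at 3 of 51 (5.88%), between 110 and 112 Mb, at 6 of 75 (8%), and between 106 and 108 Mb, at 4 of 49 (8.16%).

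Sparse windows lost a larger part of their regions than dense ones. Genes in hg19 were not counted here, so windows of 2 Mb were ranked by the number of regions that both 697 controls called, a measure that the choice of the stretches did not use. The 26 sparse windows, with 2 to 29 such regions, lost 159 of 835 (19.0%) in the KOPN-8 clone. The 28 middle windows, with 29 to 44, lost 169 of 1040 (16.2%). The 26 dense windows, with 45 to 87, lost 182 of 1478 (12.3%). The other chromosomes showed the same order at a lower level, with 7.97% in sparse, 5.84% in middle and 5.09% in dense windows. In the stretches this order is that of both pooled. The chromosome 13 stretch lost more and made up more of the sparse windows than of the dense ones. In each stretch alone, sparse windows lost more than dense ones, but middle windows did not lie between them. With both stretches pooled, the order held in the narrow and middle width classes. Under 300 bp, 32.6% were lost in sparse, 28.1% in middle and 24.7% in dense windows of the stretches, and from 300 to under 600 bp it was 10.3% in sparse, 8.40% in middle and 4.79% in dense windows. At 600 bp or more, 0 of 116 regions were lost in sparse, 1 of 183 in middle and 1 of 274 in dense windows, too few to order. Median widths of the regions called in both controls differed little, at 311 bp in sparse, 310 bp in middle and 324 bp in dense windows. In 697 sparse windows of both stretches pooled lost 6.10%, middle ones 6.42% and dense ones 4.04%, so the pooled order was not the same there. In 697 the ranking and the losses use the same control calls. The dense minus sparse difference of -6.73 points in KOPN-8 was -1.58 points with the strongest 50% of each list and -13.7 points without control 2.

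**Figure D5:**
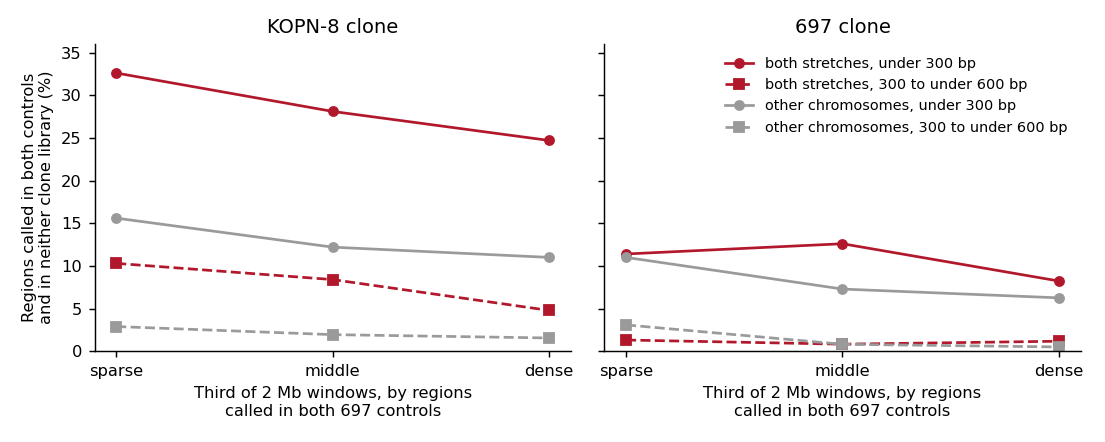
Percentage of regions called in both controls and in neither clone library in sparse, middle and dense windows of 2 Mb. Windows were ranked by the number of regions called in both 697 controls. Regions are those under 300 bp and from 300 to under 600 bp. The stretches are pooled and set beside the chromosomes other than 8 and 13. In the KOPN-8 clone (left) the lines of the stretches lie above the matching lines of the other chromosomes in every group of windows and run down towards dense windows; in the 697 clone (right) the lines lie closer together, and the sparse point of the other chromosomes includes Y (11.0% with it and 9.63% without it under 300 bp).

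In 697 the loss in the stretches lay above that of the other chromosomes on chromosome 8 and near it on chromosome 13. Of 2973 regions called in both 697 controls, 153 (5.15%) were lost in the 697 clone, against 3.69% over the whole genome and 3.61% on the other chromosomes. The other chromosomes include Y, where the 697 clone lost 103 of 104 regions. Without Y, a value added after seeing the data, 3.48% were lost over the whole genome and 3.38% on the other chromosomes. On chromosome 8 it was 132 of 2357 (5.60%) and on chromosome 13 it was 21 of 616 (3.41%), while the other chromosomes without Y reached at most 5.55%, on chromosome 4. Over both it was 11.9% without clone library 2, 21.4% without control 1 and 14.0% without control 2. Leaving out a library loosens the rule, and no such value is given for the other chromosomes. Weighted to the width classes of the stretches, the other chromosomes lost 3.79%, or 3.56% without Y. Under 300 bp, 141 of 1372 regions (10.3%) were lost in the stretches, against 7.11% on the other chromosomes without Y, and from 300 to under 600 bp 12 of 1102 (1.09%), against 0.717%. At 600 bp or more 0 of 499 were lost, which allows up to 0.601%. Gained regions made up 240 of the 3194 called in both 697 clone libraries (7.51%), against 7.7% over the whole genome. Along chromosome 8 the steps of 10 Mb overlapped in their loss. Between 70 and 120 Mb from 5.77% to 9.77% of regions were lost per step, and between 0 and 70 Mb from 1.37% to 6.51%. From 70 to 100 Mb between 1.54% and 4.41% of peaks were on the value grid in all 4 libraries of 697, clone and control alike, against medians of 26.1% to 30.7% in the steps on other chromosomes. Over both stretches 16.3% and 16.4% of peaks were on the grid in the 697 clone, against 15.5% and 17.3% in the 697 control, and on the other chromosomes 27.1% and 28.6% in the clone, against 26.4% and 29.3% in the control. The 697 stretches were thus low by the grid in clone and control alike. Both 697 clone libraries lay above both controls by the grid in 3 of the 17 steps, against 16% of the 287 steps of the genome.

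Regions lost in the KOPN-8 clone were often sites that 697 did not use. Of the 510 lost regions 289 (56.7%) had no call in any 697 library and 105 (20.6%) had a call in all 4. Of the 2422 kept regions 533 (22%) had no 697 call and 1500 (61.9%) had all 4. Regions with 1 clone call lay between, at 40.1% without and 35.2% with all 697 calls. Narrow regions under 300 bp showed the same order, with 55.3% of the lost and 30.2% of the kept ones lacking a 697 call. The other chromosomes had much the same shares, at 55.2% of lost and 21.6% of kept regions without a 697 call, so this feature was not particular to the stretches.

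The strongest regions lost in the KOPN-8 clone were of moderate rank, whereas regions called in all libraries reached the highest ranks. By the rule, lost regions were ordered by the lower of their 2 percentiles in the control lists. On chromosome 8 the first was at 4661315 to 4661628 (percentile 71.7), with peaks of 290 and 305 bp in the controls, no call in the clone and calls in all 4 libraries of 697. It was followed by 105349049 to 105349714 (71.3, called in 3 libraries of 697), 35443720 to 35444189 (71.0) and 111145057 to 111145619 (68.1), both called in all 4 libraries of 697, and 48513244 to 48513640 (67.2), which had no call in 697. On chromosome 13 the first was at 99626359 to 99626737 (percentile 76.0), with peaks of 363 and 379 bp in the controls and no call in the clone or in 697. The next were 105700939 to 105701338 (73.6), 97475157 to 97475511 (66.3), 113674668 to 113675019 (64.2) and 80483643 to 80484303 (52.1). Of these only the one at 97475157 was called in 697, in all 4 libraries.

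Gained regions were ordered by the lower of their 2 percentiles in the clone lists, among 50 on chromosome 8 and 14 on chromosome 13. The first on chromosome 8 was at 65465725 to 65466000 (lower percentile 49.6 in the clone lists), followed by those starting at 119576264 (45.2), 4168456 (44.9), 819002 (38.0) and 7009820 (34.6). The first on chromosome 13 was at 104191531 to 104191966 (61.5), followed by 99830799 to 99831316 (47.0), which all 4 libraries of 697 called with peaks of 475 and 506 bp in the clone and 391 and 488 bp in the control. The other gained regions of the rule on chromosome 13 started at 94463133 (24.9), 102611453 (20.3) and 93042642 (19.3).

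Regions called in all 8 libraries numbered 1500 in the stretches, which is 15.7% of their regions, against 20.8% on the other chromosomes. They had a median width of 670 bp, against 317 bp over all regions of the stretches. The highest-ranking were on chromosome 8 at 96036668 to 96037670, with peaks of 890 and 775 bp in the KOPN-8 clone and 757 and 803 bp in its control (smallest percentile 99.7 over the 8 lists), at 66545972 to 66546828 (99.6) and at 8860104 to 8860967 (99.5). On chromosome 13 they were at 101910350 to 101911092 (99.5), with peaks of 496 and 500 bp in the clone and 492 and 452 bp in the control, at 80622885 to 80623375 (99.2) and at 95253710 to 95254652 (98.8).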

How the data were processed

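The submitters' processing notes name Bowtie2, MACS2 and hg19. Versions, call settings, duplicate removal, any shift of cut sites and filters after calling: not given in the sources used here. Each deposited list holds the peaks of 1 library with 1 value each, which was read from its even grid as a fold over background, a linear ratio from the authors' peak calling. The narrowest peak spans 200 bp in every list.

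Peaks of the 8 lists were joined into regions where they shared 1 bp, and any peak of a library inside a region counted as its call (Python 3.11.15, numpy 2.4.6, pandas 2.3.3, scipy 1.17.1). The code was tested on simulated lists. Positions are in hg19, counted from 1. Libraries of 697 were compared by two-sided exact permutation. Named by rule in each stretch were the 5 strongest lost and 5 strongest gained regions, the 3 strongest called in all lists, the longest run of neighbours not kept, and the 3 highest and 3 lowest windows of at least 20 regions. The alternatives changed list length, call cover, width measure, windows, limits, pairing and single libraries. Members and lists were chosen with earlier results of these data known, and the value grid was examined after seeing the data. No hg19 genome or gene annotation was used, so no genes or sequences are given.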

Additional observations from a re-analysis of the deposited data

How the results depend on the processing

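Of 75 recomputed values none turned round in direction, 53 moved by less than 1 SD over the 4 clone-control pairs and 22 moved by more. Part of this count was fixed beforehand. A percentage lost cannot be negative, so it could not turn round. Pairing libraries, by replicate number or crossed, leaves the losses and their width and density differences unchanged by construction. Pairing by replicate number also leaves the grid difference unchanged by construction. For losses and their width and density differences, the SD was that of a looser measure, calls of 1 control missing from 1 clone library. It is therefore not the spread of the loss itself. With the strongest 50% of each list the KOPN-8 ratio of shares was 0.876, the narrow (under 300 bp) minus broad (600 bp or more) difference in loss 23.3 percentage points, against 27.5, the dense minus sparse difference -1.58 points, against -6.73, and the clone minus control difference on the value grid 6.48 points, against 11.9. With lists cut to 57154 peaks by value, the ratio of shares was 0.841 in KOPN-8 and 0.907 in 697, and the narrow minus broad difference 22.7 points; this cut takes low-value peaks, of which the KOPN-8 control held more in the stretches. With calls covering at least 50% of a region 18.8% were lost in KOPN-8. With the width of the merged region the narrow minus broad difference was 40.5 points, and with windows of 1 Mb the dense minus sparse difference was -9.79 points; the cause was not tested. Leaving out 1 library loosens the rule for a loss, and values under the looser rule are given for the stretches only. The percentage lost then ranged from 21.1% to 33.8% in KOPN-8, the highest without control 2 (28.0% without control 1), and from 7.06% to 21.4% in 697, the highest without control 1 (11.9% without clone 2, 14.0% without control 2). The narrow minus broad difference ranged from 37.6 to 55.4 points, the highest without control 2 (46.9 without control 1), the dense minus sparse difference from -13.7 points, without control 2, to -7.11 points, the ratio of shares from 0.739 to 0.757 in KOPN-8 and from 0.951 to 0.982 in 697, and the grid difference from 9.96 to 13.7 points. The labels do not say that a replicate number marks a shared batch. Pairing libraries by replicate number as a block gave the same ratios, 0.748 in KOPN-8 and 0.966 in 697, and by construction the same losses. Deviations of same-numbered libraries correlated at -0.147 in KOPN-8 and 0.248 in 697 over 2 Mb windows, and the crossed pairing of KOPN-8, added after seeing the data, also gave 0.748. The dense minus sparse difference could not be computed with the lists of 1 line merged alone. Read depth is unknown, so no limit from it can be given.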

Other observations

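Regions with a lost neighbour were lost more often than the others in each of the 3 sets compared. Among regions called in both KOPN-8 controls on the chromosome 8 stretch, 21.2% were lost where the neighbouring region was lost and 13.1% where it was not. On the chromosome 13 stretch it was 22.4% and 17.2%, and on the other chromosomes 10.2% and 5.59%. Median gaps between neighbours were 20.2 kb on the chromosome 8 stretch, 18.8 kb on the chromosome 13 stretch and 20.1 kb elsewhere. The longest run of neighbouring regions that the clone did not keep in both libraries lay on chromosome 8 from 4940562 to 5790441, with 9 regions of which 8 were lost and 1 kept a single call. On chromosome 13 it lay from 88942870 to 89302387, with 7 regions of which 6 were lost. On the other chromosomes the longest was on chromosome 2 from 103502776 to 104695614, with 7 regions of which 3 were lost.

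In the stretches 153 regions were lost in the 697 clone and 510 in the KOPN-8 clone, and 6 were lost in both, which is 3.92% of the 697 losses and 1.18% of the KOPN-8 losses. On the other chromosomes without Y, 33 were lost in both, which is 2.26% of 1462 losses in the 697 clone and 1.17% of 2809 in the KOPN-8 clone. In the stretches 8 regions were gained in the 697 clone and lost in the KOPN-8 clone, which is 3.33% of 240 and 1.57% of 510, against 58 on the other chromosomes (1.54% of 3769 and 2.06% of 2809). The regions gained in both numbered 1, of 240 gained in the 697 clone and 64 in the KOPN-8 clone, against 81 on the other chromosomes (2.15% of 3769 and 2.59% of 3127). These counts are too small to set the stretches apart from the other chromosomes.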
